A study of Mus musculus with 12 samples.

Results

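Mouse chromosome 1 was described in 12 tumours from the log2 ratios of its 12493 array probes, out of 170305 probes on the array. The members are every non-control probe that the array files place on chromosome 1 of the mm9 build, whatever its value. They run from chr1:3017293 to chr1:197188537, with a median spacing of 11.3 kb, and carry 1332 gene names. Probes that start below position 66000000 are called proximal here (4032 probes) and the others distal (8461 probes). The chromosome and this boundary were chosen by the chromosome 1 log2 ratios of these same tumours, so the levels, break points and cell shares below are descriptions without a test. Tests are given only for genotype and treatment, whose labels were not used in that choice. The genotype comparison is still not independent of it, because all the tumours with gains were of 1 genotype.

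The tumours were 8 malignant lymphomas and 4 renal cell carcinomas from C57BL/6 mice, each compared on a 2-colour array with the same normal kidney DNA of C57BL/6 mice. The lymphomas came from Mutyh knockout (KO) mice given ferric nitrilotriacetate (KO1077 and KO1111), an untreated KO mouse (KO1414), treated wild-type (WT) mice (WT1113, WT1114 and WT1121) and untreated WT mice (WT1405 and WT1420). All 4 carcinomas came from treated mice, 3 of them KO (KO1080, KO1097 and KO1134) and 1 WT (WT1179). Ferric nitrilotriacetate (Fe-NTA) is an iron chelate that damages the kidney through oxidation. Male mice, 20 to a treated group at the outset, received it by injection into the peritoneum, 5 injections a week over 12 weeks, with 3 mg iron per kg in the opening week and 5 mg iron per kg during the other 11, and were killed at about 120 weeks. Mutyh is the glycosylase that removes adenine paired with oxidised guanine. The labels name 1 animal per array, so each tumour was measured once, and no array of normal tissue from these mice was analysed here.

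Each array holds a whole piece of tumour, in which fewer altered cells and a smaller change per cell cannot be told apart. Mouse chromosomes have their centromere at one end, so the proximal part of chromosome 1 lies next to it and the distal part reaches the other end. Chromosome 1 carries many genes of lymphocytes, among them Bcl2, which blocks apoptosis, Ptprc, which encodes the CD45 phosphatase of leukocytes, and the cluster of Slam receptors. An extra copy of a chromosome in every cell of a diploid tumour gives a log2 ratio of 0.58, and the loss of 1 copy in every cell gives -1. Segments of 100 probes or more with a mean of 0.10 or above were called low-level gains, and those with a mean of -0.10 or below low-level losses. This threshold corresponds to 1 extra copy in 14.4% of cells or 1 missing copy in 13.4% of cells.

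Low-level gains were found in 3 of the 8 lymphomas, all of them WT (WT1113, WT1114 and WT1405), and in 0 of the 4 carcinomas. With WT1113 and WT1114, whose profiles ran in parallel, counted as 1 tumour, gains were found in 2 of 7 lymphomas. Another 2 lymphomas, both KO (KO1111 and KO1414), had low-level losses on distal chromosome 1, and 3 lymphomas had neither. The name under which this chromosome was picked, that of a low-level gain in lymphomas, therefore fits 3 of the 8. Over the 5 altered tumours, 13 break points lay beside a low-level segment. The probes on each side of 4 of these break points are printed below, because they mark where the copy number changed. Each was read from the array files, which give no strand, so all letters are in lower case and none is marked. The main break of WT1114 lay between the probes at chr1:66107236-66107295 and chr1:66162753-66162812, which fall between the probes named Pth2r and Mtap2. The break of WT1405 lay between chr1:5854869-5854928 and chr1:5891411-5891470, where neither probe carries a gene name. The break of KO1414 lay between chr1:137061157-137061216, named Gpr37l1, and chr1:137074720-137074779, with no name. One of the breaks of KO1111 lay between chr1:171457070-171457129, named Nuf2, and chr1:171472183-171472242, with no name.
WT1114, proximal side: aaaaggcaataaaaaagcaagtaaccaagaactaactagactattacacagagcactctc
WT1114, distal side: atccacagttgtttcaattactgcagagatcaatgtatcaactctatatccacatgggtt
WT1405, proximal side: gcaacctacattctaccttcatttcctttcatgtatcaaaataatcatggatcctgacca
WT1405, distal side: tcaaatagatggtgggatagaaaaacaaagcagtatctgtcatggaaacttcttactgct
KO1414, proximal side: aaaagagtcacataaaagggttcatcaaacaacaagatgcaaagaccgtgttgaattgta
KO1414, distal side: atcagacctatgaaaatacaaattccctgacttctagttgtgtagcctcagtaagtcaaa
KO1111, proximal side: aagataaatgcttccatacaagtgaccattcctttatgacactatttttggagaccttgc
KO1111, distal side: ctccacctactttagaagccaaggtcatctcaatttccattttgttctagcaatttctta

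The arrays were of similar quality. On every array 99.9% of spots lay well above background in both channels, the probe-to-probe noise was 0.11 to 0.17 on the log2 scale, and the correlation of probe GC content with the ratio was at most 0.042 on any array. The Mutyh probe at chr4:116490496-116490555 read -3.21 to -2.39 in the 6 KO tumours and -0.75 to 0.14 in the 6 WT tumours, and so separated the genotypes as labelled. The other Mutyh probe, at chr4:116480656-116480715, did not separate them, at -0.58 to 0.26 in KO and -0.82 to 0.20 in WT tumours. Focal losses at antigen receptor loci, which lymphocytes rearrange, were counted as segments of at most 10 Mb with a mean of -0.25 or below. They were present in the lymphomas only: 7 of 8 lost part of Igh, 5 of Igk, 4 of Tcra/Tcrd and 2 of Tcrb, against 0 of 4 carcinomas at each. A drop on a gained chromosome can miss this cutoff. In KO1111 a gain of chromosome 14 stopped at chr14:54126739 and resumed at chr14:54810415, around Tcra/Tcrd, without a counted loss. WT1405 was the lymphoma with none of these losses. A pair of arrays stood apart from the others. WT1113 and WT1114 had 1 Mb profiles that correlated at 0.89 over 367 bins of 3 autosomes without broad changes in either (9, 10 and 13), against at most 0.70 in the 65 other pairs, and their Igh losses began and ended at the same probes. Their Igk losses ended at the same probe and began 27.8 kb apart. On chromosome 7 both had a gain with a step between the same probes, at chr7:104411601 and chr7:104419267, and these gains began 25.0 kb apart. Both arrays lie on 1 slide with KO1077 and KO1111, the pair with that 0.70, and carry different animal numbers. Whether the animals were related or shared material was not tested. The tests of genotype and treatment are given also with the mean of this pair as 1 tumour, and 7 of the 13 break points were theirs.

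Distal chromosome 1 had its highest level in WT1114, at 0.35 ± 0.0068 (SE over 130 bins of 1 Mb), followed by WT1405 at 0.25 ± 0.0025 and WT1113 at 0.21 ± 0.0070. The other lymphomas lay between -0.083 ± 0.0058 in KO1414 and 0.018 ± 0.0031 in KO1077, with KO1111 at -0.0077 ± 0.0074, WT1121 at -0.011 ± 0.0028 and WT1420 at -0.0057 ± 0.0033. Over the 8 lymphomas the lowest, median and highest distal levels were -0.083, 0.0060 and 0.35, against -0.0047, -0.014, -0.0042 and 0.059 in the carcinomas KO1080, KO1097, KO1134 and WT1179. The 3 gained lymphomas were above every carcinoma and KO1414 was below every carcinoma, while the other 4 lymphomas overlapped them. All carcinomas lay on a slide of their own and no lymphoma shared it. Tumour type and slide therefore cannot be told apart in any comparison of lymphomas with carcinomas here.

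Proximal chromosome 1 was highest in WT1405, at 0.23 ± 0.0081 (SE over 63 bins), followed by WT1113 at 0.18 ± 0.0088. WT1179, a carcinoma, read 0.076 ± 0.0036 and came before WT1114, at 0.052 ± 0.0077, whose other autosomes had a median level of 0.054. With the array of WT1114 centred on the mode of 1 Mb bins, its proximal level was 0.010 and its distal level 0.31. The remaining lymphomas lay between -0.016 ± 0.0040 in KO1414 and 0.038 ± 0.0052 in KO1111. The KO carcinomas lay between -0.018 and -0.0043.

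**Figure D1:**
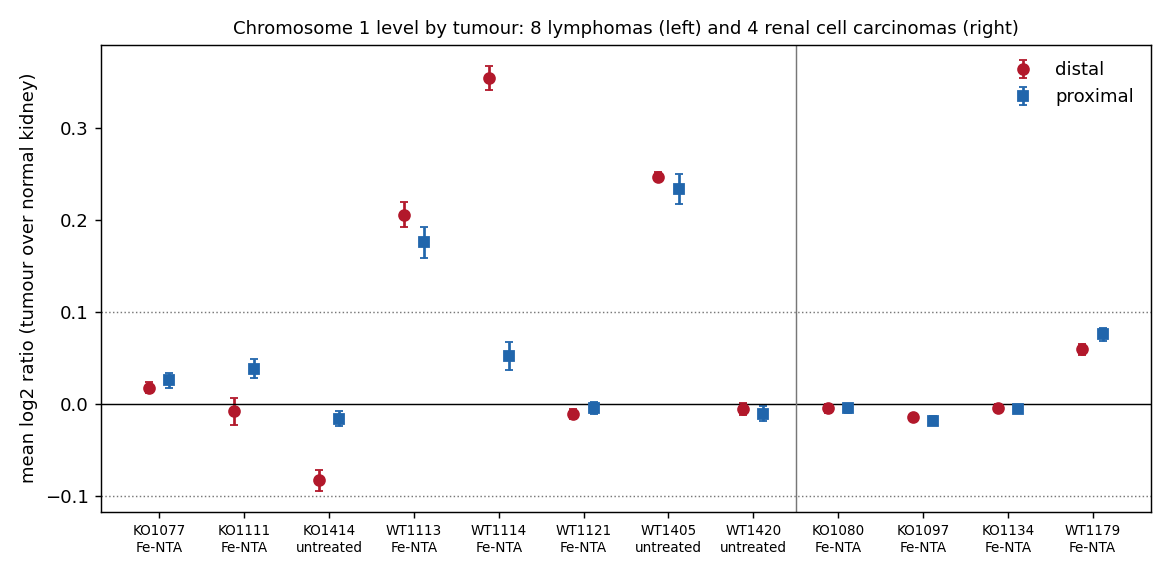
Mean log2 ratio of distal (red circles) and proximal (blue squares) chromosome 1 in 8 lymphomas and 4 carcinomas, with bars for 95% intervals over 1 Mb bins and dotted lines at 0.10 and -0.10. WT1113 and WT1405 are raised on both parts and WT1114 on the distal part alone.

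The distal minus proximal difference set WT1114 apart. It was 0.30 ± 0.010 in WT1114, against 0.030 ± 0.011 in WT1113 and 0.013 ± 0.0085 in WT1405, the other gained tumours. It was negative in both tumours with losses, at -0.067 ± 0.0071 in KO1414 and -0.046 ± 0.0090 in KO1111. In the 3 other lymphomas it ran from -0.0080 to 0.0045, and in the carcinomas from -0.017 to 0.0037. Among the 19 autosomes of its own tumour, chromosome 1 had the highest mean in WT1114, the third highest in WT1113 and the fifth highest in WT1405.

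**Figure D2:**
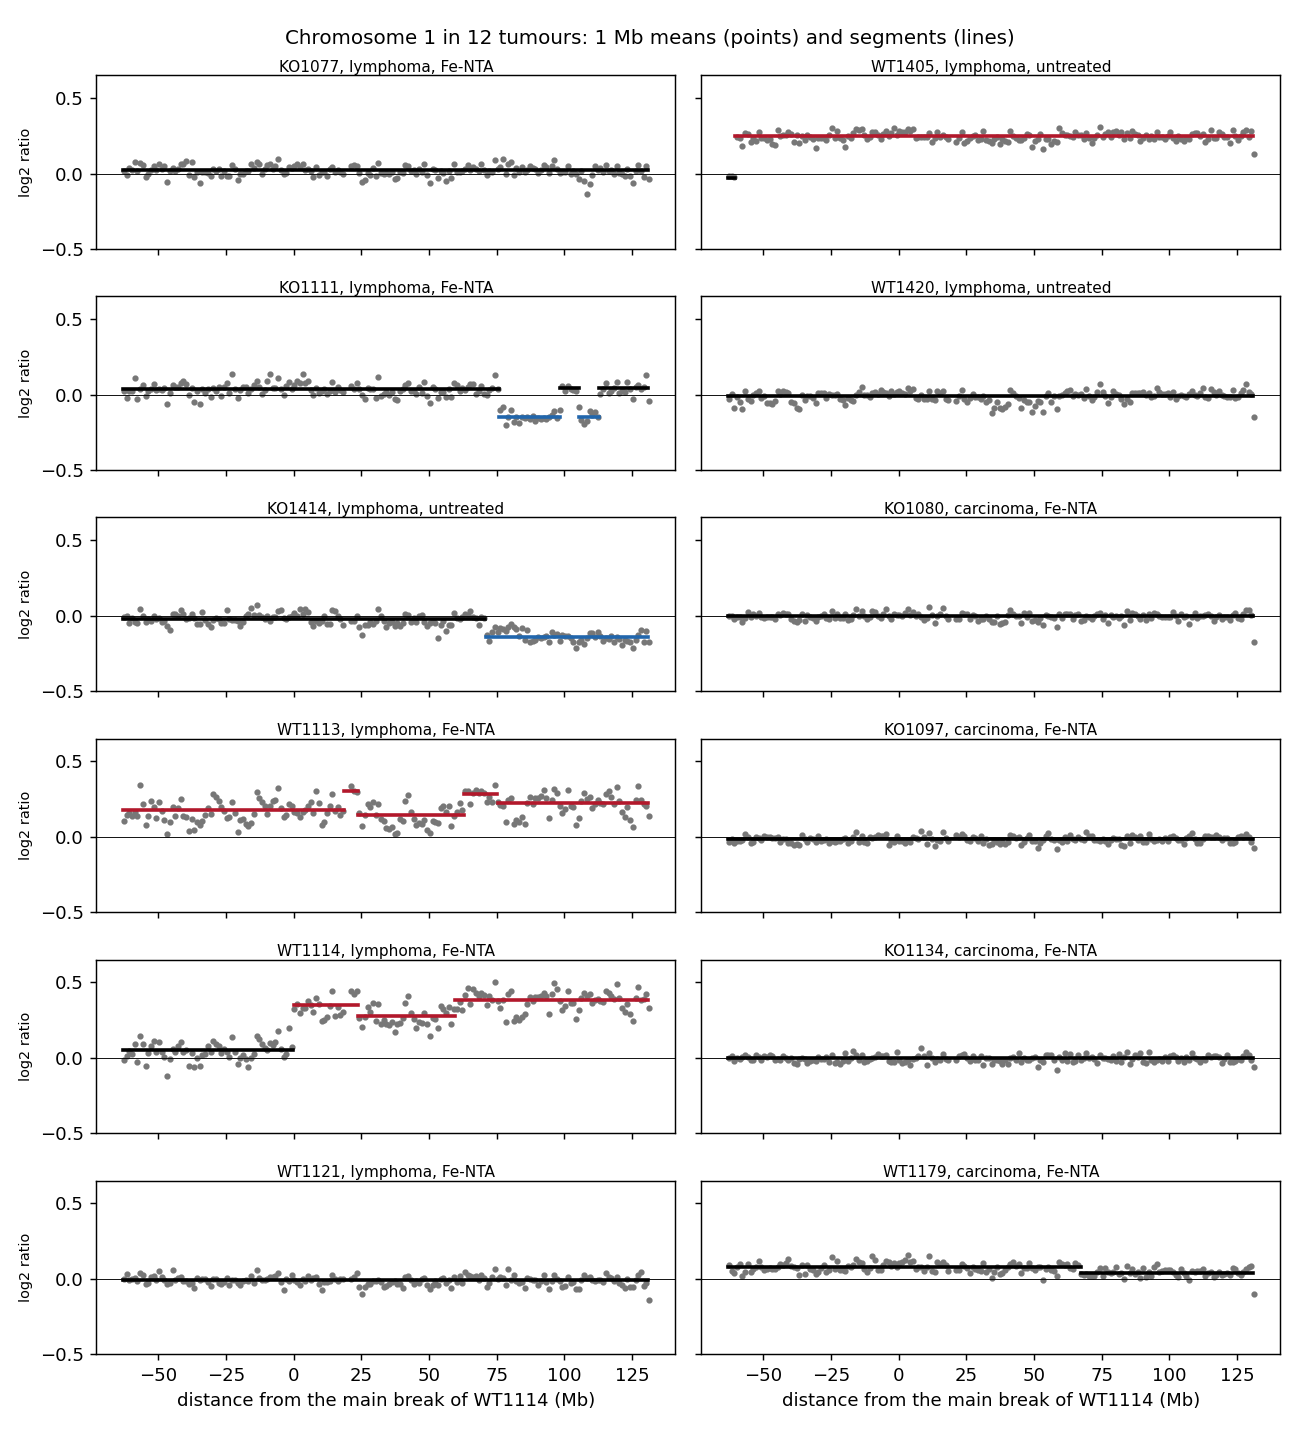
Log2 ratio along chromosome 1 in each tumour, as 1 Mb means (grey points) and segments (lines: red for low-level gain, blue for low-level loss, black for neither), against distance from the main break of WT1114 in Mb. WT1114 steps up by 0.29 at that break, WT1405 steps up near the proximal end, and KO1111 and KO1414 step down in the distal part.

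WT1405 carried the simplest gain. Its first 164 probes, over 2.84 Mb, had a mean of -0.028 ± 0.011 (SE over bins), and the 12329 probes from chr1:5891411 to the last one had a mean of 0.25 ± 0.0021. The step of 0.27 fell in an interval of 46.1 kb at the 95% level. The 11 other tumours changed by -0.0027 to 0.073 between the flanks of this point (up to 5 Mb each), so none had a step of that size there, and the largest was in WT1113. With 1 extra copy the gain corresponds to 37.2% of cells (95% interval 36.6 to 37.9%), or 41.9% when measured from the 164 probes before it. The intervals of cell shares, here and below, cover only the spread over 1 Mb bins of 1 array. They leave out the choice of the zero level and treat neighbouring bins as independent.

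Gains covered 98.7% of chromosome 1 probes in WT1405, against 37.5% of all its autosomal probes. Its 7 other gained segments of 20 Mb or more corresponded to 30.8 to 86.0% of cells, with chromosome 6 at the top (0.52) and chromosome 5 at 37.3% and 30.8%. The share for chromosome 1 lay within that range. The gained segments of chromosomes 6, 11, 15, 17 and 18 and the first of the 2 on chromosome 5 began at the first probe of their chromosome, whereas the gain of chromosome 1 left out the 164 probes nearest the centromere.

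In WT1114 the gain ran from chr1:66162753 to the last probe. The main step, 0.29, fell in an interval of 84.5 kb, with 0.052 ± 0.0076 before it and 0.35 ± 0.013 after it. The 11 other tumours changed by -0.022 to 0.048 across this point, and WT1113 by -0.010. The gain was split into 3 segments. The 2 breaks between them were lost at a stricter penalty and with probes centred over arrays. At the last of them, where the flanks of WT1114 differed by 0.077, the 11 other tumours were also higher on the distal side, by 0.0032 to 0.078. The first, up to chr1:90088785, corresponded to 54.4% of cells (50.1 to 58.7%). The second, chr1:90097009-125795498, had a level of 0.28 and 42.7% (39.4 to 46.0%). The third, from chr1:125805911, had a level of 0.38 and 61.1% (58.5 to 63.7%). These shares assume 1 extra copy, and with 2 extra copies they fall to 27.2%, 21.3% and 30.5%. Measured from the proximal segment, the main step corresponded to 45.3% of cells.

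Gained segments held 67.7% of chromosome 1 probes in WT1114, against 8.67% of all its autosomal probes. Its other broad gain was on distal chromosome 7, at 0.32 and 0.37 in adjoining segments, or 49.9% and 58.8% of cells, close to the shares on chromosome 1. The focal losses of Igh and Igk in the same tumour corresponded to 37.5% and 36.2% of cells if 1 copy was missing. All these shares were measured from the zero level of the array, while the other autosomes had a median level of 0.054. Such an offset raises the shares of gains and lowers those of losses, so gains and losses are not compared here. Measured from the proximal segment, the main step on chromosome 1 corresponded to 45.3% of cells, and the losses were not measured in this way.

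In WT1113 all probes lay in gained segments (100% of chromosome 1 probes, against 17.5% of all autosomal probes), at levels that differed along the chromosome. The first segment, up to chr1:84693750, had a level of 0.18 (26.2% of cells, 23.9 to 28.5%). The segment chr1:84708285-90063942 rose to 0.30 (46.7%), that of chr1:90074341-129018223 fell to 0.15 (21.2%), that of chr1:129051102-141490982 had 0.28 (43.0%), and the last had 0.22 (32.9%). Every one of these shares was below those of the gained segments of 20 Mb or more on chromosomes 7 and 15 of the same tumour, which ran from 54.8 to 76.2%. The 10 shorter gained segments on its other autosomes ran from 14.6 to 50.3% and overlapped the shares on chromosome 1. The Igh loss of this tumour corresponded to 53.2% of cells.

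The small steps of WT1113 were also seen in WT1114. Across chr1:84708285 the 5 Mb flanks rose by 0.11 in WT1113 and 0.096 in WT1114, and across chr1:90074341, within the probes named Ugt1a10, they fell by 0.15 in WT1113 and 0.16 in WT1114. Across chr1:129051102 they rose by 0.12 and 0.098, and across chr1:141507873 they fell by 0.070 in both. In the 10 other tumours the change at the first of these points ran from -0.025 to 0.032, and at the second from -0.072 to 0.0046, with KO1077, KO1414 and WT1121 at -0.070, -0.051 and -0.072. At the third point it ran from -0.023 to 0.030. At the fourth it ran from -0.17, in KO1111 near a break of its own, to 0.021. The second step of WT1114, also in Ugt1a10, lay 22.7 kb from that of WT1113. The correlation of the 2 profiles was 0.95 over the 130 distal bins, against -0.16 to 0.77 in the 65 other pairs. The flat lymphoma WT1420 correlated at 0.65 with WT1113 and at 0.66 with WT1114. Part of the bin pattern was thus shared with a tumour without a called change. These values are descriptions, and the arrays of WT1113 and WT1114 share a slide.

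When the probe-wise difference of WT1114 minus WT1113 was segmented, a calculation added after the small steps had been seen, chromosome 1 had 1 break. The difference was -0.12 over the 4036 probes up to chr1:66107295 and 0.15 over the 8457 probes from chr1:66162753. The 7 break points that the tumours showed singly on chromosome 1 thus came down to the main one of WT1114, and at the stricter penalty of 20 the result was the same. At the looser penalty of 5 there were 4 breaks. Besides the main one, 2 bounded a stretch of 25 probes before it, and 1 lay at chr1:143154551, with a difference of 0.14 before it and 0.16 after it.

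**Figure D3:**
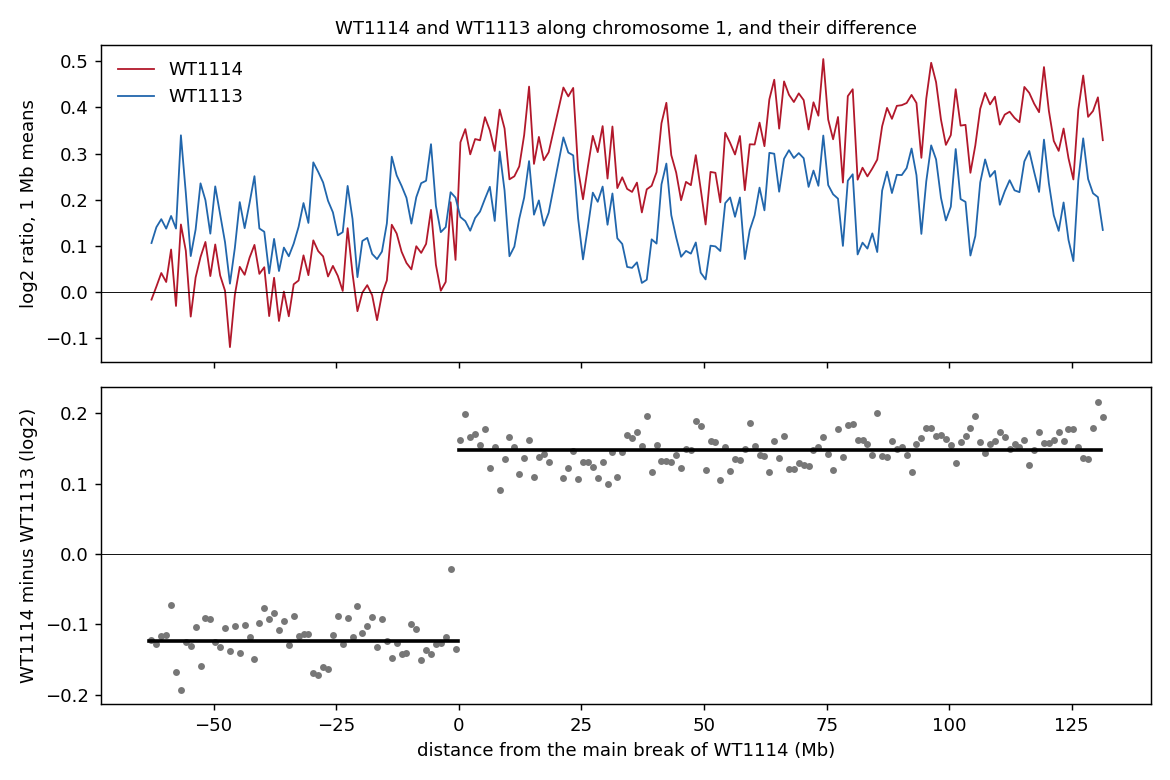
Log2 ratio of WT1114 (red) and WT1113 (blue) in 1 Mb means along chromosome 1, and below it WT1114 minus WT1113 (points) with its segments (lines), against distance from the main break of WT1114 in Mb. The 2 lines move together from bin to bin, and their difference takes the levels -0.12 and 0.15.

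KO1111 had 2 separate losses on distal chromosome 1. The first, which ended at chr1:164728952, had a level of -0.15 ± 0.0058 over 1404 probes and 132 gene names. The second, which began at chr1:171472183, had -0.15 ± 0.0094 over 645 probes and 110 gene names. The 3 stretches around them all lay between 0.037 and 0.041. The shares were 19.7% of cells (18.3 to 21.1%) and 19.9% (17.6 to 22.2%) if 1 copy was missing, and 24.3 to 25.0% when each step was measured from the stretch beside it.

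KO1111 had 4 breaks, of which the second lay next to the probe named Fmo4 and the third next to Nuf2. Fmo4 encodes a flavin monooxygenase and Nuf2 a subunit of the kinetochore. The steps at the 4 breaks were -0.19, 0.19, -0.19 and 0.19, equal in size to 2 decimals. The 11 other tumours changed by at most 0.063 in either direction at these points. Losses held 16.4% of chromosome 1 probes in KO1111, against 1.35% of all its autosomal probes. The broad changes of KO1111 on other autosomes were 6 gains, at 17.9 to 37.1% of cells. These shares were measured from the zero level of the array, while its other autosomes had a median level of 0.046. Such an offset raises the shares of gains and lowers those of losses, so the gains and losses of KO1111 are not compared here.

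KO1414 had a single loss that ran from chr1:137074720 to the last probe, at -0.14 ± 0.0046 over 4144 probes and 507 gene names. It corresponded to 18.7% of cells (17.5 to 19.8%), or 16.0% measured from the segment before it, which had a level of -0.021. Both losses of KO1111 lay within the span of this one. Across its break, next to the probe named Gpr37l1, the 11 other tumours changed by -0.038 to 0.017. Losses held 33.2% of chromosome 1 probes in KO1414, against 12.1% of all its autosomal probes, and its 3 other broad losses corresponded to 17.1 to 25.9% of cells.

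**Figure D4:**
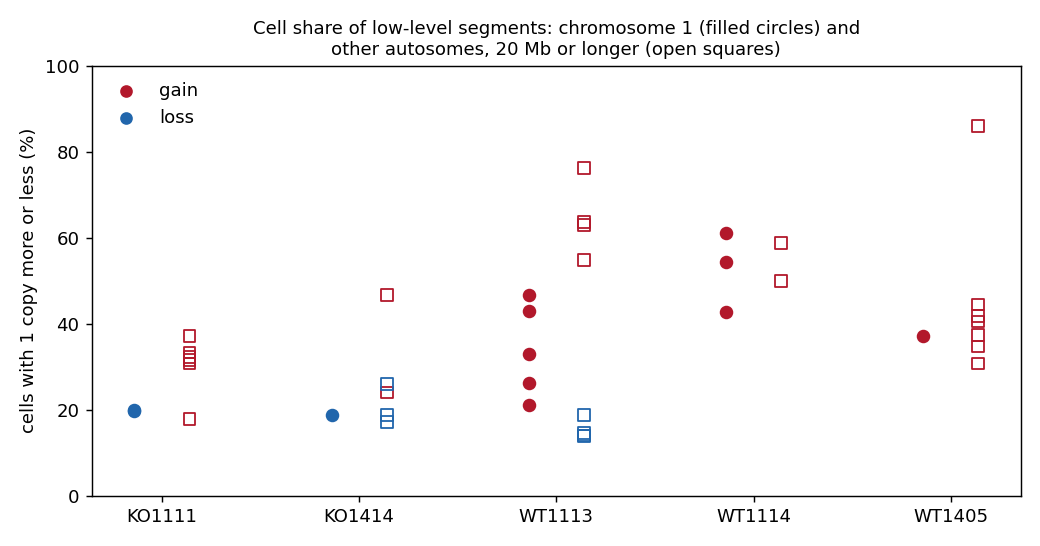
Percent of cells with 1 copy more (red) or less (blue) for each low-level segment of chromosome 1 (filled circles) and for segments of 20 Mb or more on other autosomes (open squares) in the 5 altered lymphomas. In WT1113 the chromosome 1 gains lie below the other gains of 20 Mb or more, and in KO1111 and KO1414 the chromosome 1 losses lie near 20%. Shares are measured from the zero level of each array, so gains are not compared with losses.

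The remaining tumours were close to flat. KO1077, WT1121 and WT1420 among the lymphomas, and KO1080, KO1097 and KO1134 among the carcinomas, each formed 1 segment over the whole chromosome, with distal levels from -0.014 to 0.018. WT1179 had 2 segments, 0.078 up to chr1:133426687 and 0.041 beyond it, both under 0.10. As the values nearest to the threshold, 0.078 in WT1179 lay just outside it and -0.14 in KO1414 and 0.15 in WT1113 just inside. At a threshold of 0.07 the carcinoma WT1179 also counted as gained, so that 1 of the 4 carcinomas did. At 0.15 the loss of KO1414 and the first loss of KO1111 no longer counted, which left 1 lymphoma with a loss. The 3 gained lymphomas were gained at all 3 thresholds.

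Listed genes of lymphocytes on chromosome 1 read at least 0.10 about as often as all genes of the same part in the 3 gained tumours. In KO1111 the distal ones did so more often than all distal genes, but this was not particular to KO1111. Of 48 genes listed for lymphocyte signalling and survival, 42 had probes there, 12 proximal and 30 distal. Of the 30 distal genes, 29 read at least 0.10 in WT1114 (median 0.46), 29 in WT1405 (median 0.28) and 27 in WT1113 (median 0.29), against 97.6%, 92.4% and 87.7% of all 955 distal genes, whose medians were 0.38, 0.24 and 0.24. In KO1414, 11 of the 30 read at most -0.10, against 46.8% of all distal genes, and in KO1111, 8 of the 30, against 25.2%. Another 13 of the 30 read at least 0.10 in KO1111, against 22.2% of all distal genes. The carcinoma WT1179 had 14 of the 30, against 28.4%, and the flat lymphoma KO1077 had 9, against 22.1%. KO1080, WT1121 and WT1420 were slightly above the share of all distal genes, and KO1097, KO1134 and KO1414 were below it. Of the 12 proximal genes, 11 read at least 0.10 in WT1113 and in WT1405 and 5 in WT1114, against 82.0%, 90.2% and 41.6% of all 377 proximal genes. Inside the loss of KO1414, 11 of 25 listed genes of all kinds read at most -0.10 (median -0.084), against 69.2% of all 507 genes there (median -0.14). In the unaltered lymphomas WT1121 and WT1420 the medians of the 30 distal genes were 0.037 and 0.058, against -0.011 and 0.0035 over all distal genes.

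Bcl2, with 19 probes at chr1:108435680-108608199, had log2 ratios of 0.44 in WT1114, 0.25 in WT1113 and 0.25 in WT1405. Its ratios were 0.12 in KO1111, 0.035 in KO1077, -0.015 in KO1414, 0.0083 in WT1121 and 0.049 in WT1420, and ran from -0.025 to 0.13 in the carcinomas. The 3 gained tumours were above all others. Ptprc, with 10 probes at chr1:139963149-140070842, had 0.46 in WT1114, 0.33 in WT1113 and 0.29 in WT1405. It read 0.14 in KO1111, 0.092 in KO1077, 0.0080 in KO1414, 0.072 in WT1121 and 0.095 in WT1420, and -0.00089 to 0.12 in the carcinomas. This gene lies inside the loss of KO1414 but before the losses of KO1111, and KO1414 was the lowest of the lymphomas. Ikzf2, a transcription factor of T cells with 15 probes, had 0.39 in WT1114, 0.32 in WT1405, 0.23 in WT1113 and 0.21 in KO1111.

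The proximal part held Zap70, a kinase of T cell receptor signalling, the transcription factor Stat4, and the costimulatory receptors Cd28, Ctla4 and Icos. Stat4, with 10 probes, read 0.34 in WT1113 and 0.27 in WT1405, against 0.12 in WT1114, 0.13 in KO1111 and 0.17 and 0.13 in the carcinomas WT1179 and KO1080. Cd28, with 3 probes, read 0.39 in WT1113 and 0.34 in WT1405, but also 0.35 in WT1114 and 0.30 in KO1111, where the segment levels were 0.052 and 0.037. Genes with few probes thus strayed from their segment: 11 of the 69 listed genes had 1 probe and the median gene had 3.

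The Slam receptors, which act in contacts between lymphocytes, lie inside the second loss of KO1111, together with Fcgr2b, the inhibitory Fc receptor of B cells, and Exo1, an exonuclease of DNA repair. The listed genes in that loss were 9, of which 6 read at most -0.10 in KO1111: Fcgr2b at -0.42 (1 probe), Cd48 at -0.34 (2 probes), Exo1 at -0.29 (4 probes), Cd84 at -0.16 (5 probes), Slamf1 at -0.13 (4 probes) and Slamf7 at -0.12 (2 probes). Of all 109 genes inside that loss, 67.9% read at most -0.10. Cd244 and Ly9, in the same loss, read 0.25 and 0.29 in KO1111. Cd244, with 3 probes, also read 0.77 in WT1114, 0.58 in WT1113, 0.53 in WT1405, 0.41 in WT1420 and 0.38 in WT1121, against -0.32 in KO1414, so its values spread far beyond the segment levels in unaltered tumours too. In the first loss of KO1111, 4 of 6 listed genes read at most -0.10, against 71.2% of all 132 genes there, among them Rgs1, a regulator of G protein signalling, and Prdx6, a peroxiredoxin.

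Of 19 listed genes of DNA repair, replication and tumour suppression, 10 were distal, and all 10 read at least 0.10 in WT1113, WT1114 and WT1405, with medians of 0.27, 0.42 and 0.25, against 87.7%, 97.6% and 92.4% of all distal genes. Xrcc5, the Ku80 subunit of end joining, had 0.42 in WT1114, 0.28 in WT1113 and 0.32 in WT1405 over 11 probes, and Cdc73, a subunit of the PAF1 complex, had 0.49, 0.27 and 0.30 over 11 probes. Of the 9 proximal genes, 9 read at least 0.10 in WT1405, 7 in WT1113 and 4 in WT1114, against 90.2%, 82.0% and 41.6% of all proximal genes. Prim2, the large subunit of primase, showed the split with 25 probes: 0.20 in WT1405 and 0.11 in WT1113, against 0.0031 in WT1114. All 9 listed genes of iron and oxidative metabolism had probes, and all 6 distal ones read at least 0.10 in WT1113 and in WT1114, with 5 of 6 in WT1405, against the shares of all distal genes just given. Slc11a1, an iron and manganese transporter of phagocytes, read 0.35 in WT1114, 0.36 in WT1113 and 0.25 in WT1405 over 2 probes, and Slc40a1, the iron exporter ferroportin, is proximal and read 0.058, 0.028 and 0.42 over 2 probes.

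**Figure D5:**
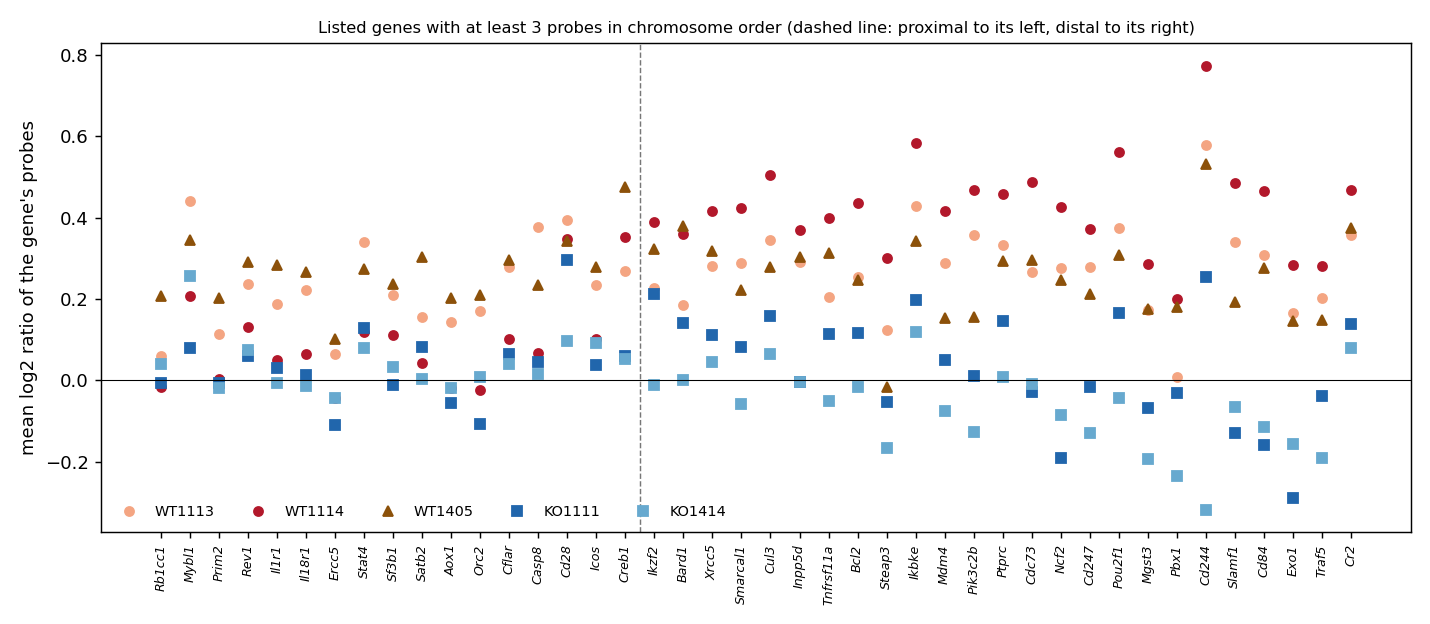
Mean log2 ratio of the probes of each listed gene with at least 3 probes (all but 1 such gene), in chromosome order, in the 5 altered lymphomas. Left of the dashed line (17 proximal genes) WT1114 (dark red) lies mostly below WT1113 and WT1405, and right of it (25 distal genes) mostly above them.

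Whether chromosome 1 differed with genotype was asked over the 8 lymphomas. The distal level was 0.018, -0.0077 and -0.083 in the KO lymphomas, against 0.21, 0.35, -0.011, 0.25 and -0.0057 in the WT lymphomas. Every KO value lay below the 3 gained WT tumours, while WT1121 and WT1420 lay among the KO values. The means were -0.024 ± 0.052 (SD, n = 3) in KO and 0.16 ± 0.16 (SD, n = 5) in WT lymphomas. Their difference of -0.18 did not pass a two-sided exact permutation test (p = 0.125, adjusted p = 0.50 over 4 tests by Benjamini-Hochberg), in which 0.0179 is the smallest p possible. With WT1113 and WT1114 averaged into 1 tumour the difference was -0.15 (exact p = 0.257, adjusted p = 0.80). On the slide with 2 tumours of each genotype the levels were 0.0051 ± 0.018 in KO and 0.28 ± 0.10 in WT lymphomas (SD, n = 2 each). Those 2 WT lymphomas were WT1113 and WT1114, the parallel pair, which may not be independent. On the other slide with lymphomas the levels were -0.083 in the 1 KO lymphoma and 0.077 ± 0.15 in WT lymphomas (SD, n = 3). The proximal level averaged 0.016 ± 0.028 in KO (SD, n = 3) and 0.089 ± 0.11 in WT lymphomas (SD, n = 5), a difference of -0.073 (exact permutation p = 0.321, adjusted p = 0.64). With the pair averaged the proximal difference was -0.067 (exact permutation p = 0.40, adjusted p = 0.80).

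Treatment with Fe-NTA was compared in the same way. The distal level averaged 0.11 ± 0.16 in treated (SD, n = 5) and 0.053 ± 0.17 in untreated lymphomas (SD, n = 3), a difference of 0.059 (exact permutation p = 0.571, adjusted p = 0.76). Without WT1114 the difference was -0.0015, and without KO1414 it was -0.0086. With WT1113 and WT1114 averaged it was 0.017. The proximal level averaged 0.058 ± 0.069 in treated (SD, n = 5) and 0.069 ± 0.14 in untreated lymphomas (SD, n = 3), a difference of -0.012 (exact permutation p = 0.911, adjusted p = 0.91), which was 0.071 without WT1405, 0.0038 without WT1121 and -0.026 with WT1113 and WT1114 averaged. Of the slides with lymphomas, one held treated lymphomas only. On the other, the 1 treated lymphoma read -0.011 (distal) and -0.0045 (proximal), against 0.053 ± 0.17 and 0.069 ± 0.14 in the untreated ones (SD, n = 3).

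Gene by gene, limma was fitted to 20283 autosomal genes in all 12 tumours with tumour type, genotype and treatment as terms. Between KO and WT tumours 1 of 1325 chromosome 1 genes passed an adjusted p of 0.05, against 0.0641% of all genes tested. This was AK044741, a transcript with 1 probe at chr1:189282262-189282321, at -0.52 ± 0.078 (SE) in KO minus WT tumours, limma adjusted p = 0.028. It read -0.71, -0.80 and -0.78 in the KO carcinomas and -0.49, -0.32 and -0.57 in the KO lymphomas, against -0.30 in the WT carcinoma and 0.16, 0.25, -0.14, 0.17 and -0.065 in the WT lymphomas. The 68 other probes within 0.5 Mb on either side averaged -0.030 to 0.015 in the KO carcinomas, so the low value was that of a single probe. The call was lost when any tumour but WT1121 was left out. Before adjustment 376 of the 1325 genes had p under 0.05, all of them lower in KO, which is 28.4%, against 5.1% of all 20283 genes. With WT1113 and WT1114 averaged this count was 196. Genes of 1 segment move together and are not independent. The median KO minus WT difference was -0.13 on chromosome 1 and -0.025 over all genes.

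For treated minus untreated tumours 0 of 1325 chromosome 1 genes passed in limma, against 0% of all genes tested. Before adjustment 98 had p under 0.05, or 7.4%, against 10.5% of all genes. Of these 74 were higher and 24 lower in treated tumours. Without WT1121, a treated lymphoma that is flat on this chromosome, 38 passed, all higher in treated tumours, which is 2.87% of chromosome 1 genes, against 2.05% of all genes. The median difference was 0.056 on chromosome 1 and 0.018 over all genes.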

How the data were processed

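Genomic DNA of 12 tumours (Cy5) and of a common normal kidney (Cy3) was hybridised to 2-colour Agilent arrays, per the labels. The authors deposited scanner files made with Agilent Feature Extraction 10.7 per the submitters' processing notes, and on mm9 per the file headers. Their processed red and green intensity values, already background-subtracted and dye-normalized, were used, and the deposited LogRatio column (log10) and series-wide table (log2 values, median -0.020 to 0.025 per array, correlation with the scanner ratio at least 0.9999) served as alternatives. The log2 of red over green was centred on each array's autosomal mode (density bandwidth 0.05), without loess. Outlier spots (at most 0.171%) were left out and spots of a probe averaged. Segments came from penalised least squares (penalty 10 times the noise variance times the log of the probe number), tested on simulated chromosomes with known steps. A cell share is 200 times the change in ratio, for 1 copy in a diploid genome. Tests were limma 3.58.1 in R 4.3.3 on gene means with Benjamini-Hochberg adjustment, and exact permutation over lymphomas. Slides were tested as a random block. Genes were named by list membership, by lying at a break point or by passing limma. The members, the boundary and the gene lists were chosen with earlier results of these data known. Of 75 listed names, 6 had no chromosome 1 probe by that name. Exons and introns were not used here, and some genes at break points or in the lists are not reported here. Precision depends on the small number of arrays.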

Additional observations from a re-analysis of the deposited data

Results flagged for a closer look

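The distal minus proximal difference of WT1114, 0.302, lay far above that of the 7 other lymphomas, of which WT1113 was the next at 0.030. Among the 4 carcinomas WT1179 stood above the others on both parts of chromosome 1, at 0.0594 on the distal and 0.0761 on the proximal part, while the 3 KO carcinomas lay between -0.018 and -0.0042. WT1179 is also the only WT carcinoma, so its genotype and the tumour itself cannot be told apart. A gap this wide against the range of a group is met in about 1 group in 20 by chance. That rate is for 1 measure in 1 group, whereas both tumour types were checked on the proximal level, the distal level and their difference. The gaps of WT1179 on both parts come from the same array and are not independent. The rate of 1 in 20 does not apply to WT1114, because the boundary between the parts was chosen at its own main break and the difference restates that choice.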

How the results depend on the processing

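No paired analysis was possible because the replicate numbers are animal numbers that no 2 groups share. The 4 arm tests could hardly reach an adjusted p of 0.05 at this number of lymphomas, so their p-values say nothing about stability, and only the differences are given here. The distal KO minus WT difference ranged from -0.22 to -0.13 and the proximal one from -0.098 to -0.037 when 1 lymphoma was left out. The treated minus untreated difference ranged from -0.0086 to 0.16 (distal) and from -0.054 to 0.071 (proximal), and its sign turned without KO1414 (-0.008646) or WT1114 (-0.001513) for distal, and without WT1121 (0.003757) or WT1405 (0.07051) for proximal. The count of chromosome 1 genes called between KO and WT tumours was 0 to 1 over the tumours left out in turn, and was 0 with normexp background correction, with genes of at least 3 probes and with WT1113 and WT1114 averaged. For treatment it was 0 to 38. The distal minus proximal difference of WT1114 was 0.28 with the boundary at 72 Mb, which moves gained probes to the proximal part, and 0.36 with normexp (the cause of the normexp changes was not tested). Break points in KO1111, KO1414, WT1405 and the main one of WT1114 were found within 1 Mb under both other penalties and with probes centred over arrays. Those of WT1113 and the 2 smaller ones of WT1114 were lost at the stricter penalty, those 2 of WT1114 also with probes centred over arrays, and at the looser one WT1113 had 22. Centring on the autosomal median lowered the distal share of WT1405 to 25.2% of cells, that of WT1113 to 26.8% and that of WT1114 to 47.9%, and centring on the mode of 1 Mb bins gave 38.8%, 31.2% and 48.3% (the cause was not tested).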

Other observations

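A short stretch of 25 probes lay at a raised level just before the main break of WT1114. It was chosen after its values were seen, as a segment of WT1114 minus WT1113 at the looser penalty of 5. It covers chr1:64184599-64662452 (478 kb) and holds the probes named Creb1, a transcription factor that responds to cyclic AMP, with Mettl21a and AK042153. In WT1114 its mean was 0.35 ± 0.028 (SE over probes), against 0.076 for the 159 probes within 1 Mb on either side, a difference of 0.28 close to the main step of 0.29. In WT1113 it read 0.20, against 0.19 beside it, and in WT1405 0.33, against 0.28. In the 9 other tumours the difference from the probes beside it ran from -0.043 to 0.025. The stretch did not form a segment of its own in WT1114 at the penalty of 10.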
